A study of Mus musculus with 4 samples.

Results

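The genes described here encode the receptors that let blood cells roll on, stick to and crawl along vessel walls and marrow matrix: Selplg, Cd44 and the integrin chains Itga4, Itga5, Itga6, Itgal, Itgb1, Itgb2 and Itgb7. They were read from every probe set whose only platform gene symbol is one of these 9, which gave 26 of the 45037 probe sets of a 3' expression array. The samples were lymphoid-primed multipotent progenitors (LMPPs), early marrow progenitors with lymphoid and myeloid potential, sorted as lineage-negative cells bearing both Kit and Sca-1 whose Flt3 was high. The arrays were 2 labelled Lyl1 KO (Lyl1-null) and 2 labelled WT (wildtype), all from untreated C57Bl/6 mice of 6 to 8 weeks. The labels refer to an earlier publication for the null allele and do not say how many mice, of which sex, stand behind an array, and the p-values below can only reflect how far these arrays vary, which may be technical. Values are deposited log2 RMA values, in which a difference of 1 is a factor of 2, and the 4 arrays limit the precision of all of them.

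Homing runs in steps. Selectins on the vessel wall catch sugar-decorated mucins such as the product of Selplg and forms of Cd44, chemokines then switch integrins on from inside the cell, and integrins hold the cell to its ligands. An integrin is a pair of 1 alpha and 1 beta chain, so the level of a chain limits only the pairs it enters. Itgal pairs with Itgb2 to form LFA-1, which binds Icam1. Itga4 pairs with Itgb1 to bind Vcam1 and fibronectin, and with Itgb7 to bind Madcam1, the gut address molecule. Itga5 and Itga6 pair with Itgb1 to bind fibronectin and laminin.

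The label of 1 library went against its targeted gene. Lyl1 read 5.14 in the library labelled Lyl1 KO replicate 1 and 10.32 in the library labelled Lyl1 KO replicate 2, against 12.34 and 12.29 in WT. The second thus lay closer to WT than to the first. That library also stood apart as a whole: set against any other array, it had 1076 to 1922 of 22519 probe sets 2-fold or more away, against 79 to 241 for pairs of the other 3. Its Xist value was 14.26, against 5.81 to 6.30 in the other 3, and its value for the Y-linked Eif2s3y was 8.44, against 10.07 to 10.15. The sort markers Kit and Flt3 were above the filter on every array (8.97 to 12.12) but lower in both libraries labelled Lyl1 KO. Flt3 read 11.80 and 11.26 there, against 11.92 and 12.12 in WT, and Kit is given with the other marker lists. Ly6a was not analysed here. Of 8 measured mature lineage markers, 5 were below the filter. The other 3 (Cd4, Cd8a and Cd3e) were at 5.72 to 6.85, each higher in both libraries labelled Lyl1 KO than in WT. Results are therefore given for both libraries labelled Lyl1 KO separately as well as together.

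In the brightest probe set of each gene, by its mean over the arrays, the 2 chains of LFA-1 and the alpha-4 chain had lower values in both libraries labelled Lyl1 KO, Itgb7 and Itga6 lay close to WT, and Selplg and Itgb1 differed in opposite directions in the libraries labelled Lyl1 KO. Dimmer probe sets of Itgal, Itga4 and Itga6 did not all follow the brightest. None of these differences passed the test over all probe sets. Of the 26 probe sets, 16 passed the filter on dim probe sets (a mean over the 4 arrays of at least 5.69, the median of all probe-set means) and were tested, with at least 1 for each gene. In limma, 0 of the 16 had an adjusted p below 0.05, where 2 of 22519 probe sets (0.00888%) did. One of the 16, the dimmest tested probe set of Itga4, passed the filter only through WT, where it was higher, so its low values are described below and left out of the counts that follow. At an unadjusted p below 0.05 there were 2 of the other 15, Itgb2 and Itgal, both with lower values in the libraries labelled Lyl1 KO, where 7.39% of all probe sets reached that level and 5.6% did so with lower values. Of the 15, 12 had a negative difference, as did 59.3% of all probe sets tested. Their median difference was −0.14, beside −0.07 for all probe sets tested. The figures for all probe sets keep those that passed the filter through a single group. In tests on simulated data, this design recovered 3% of 2-fold and 78% of 4-fold changes among 22519 probe sets, and the 15 probe sets differed by 1.58-fold at most. The simulated arrays shared the same noise, and none stood apart as the library labelled Lyl1 KO replicate 2 did. These shares may therefore not hold for the real arrays.

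**Figure D1:**
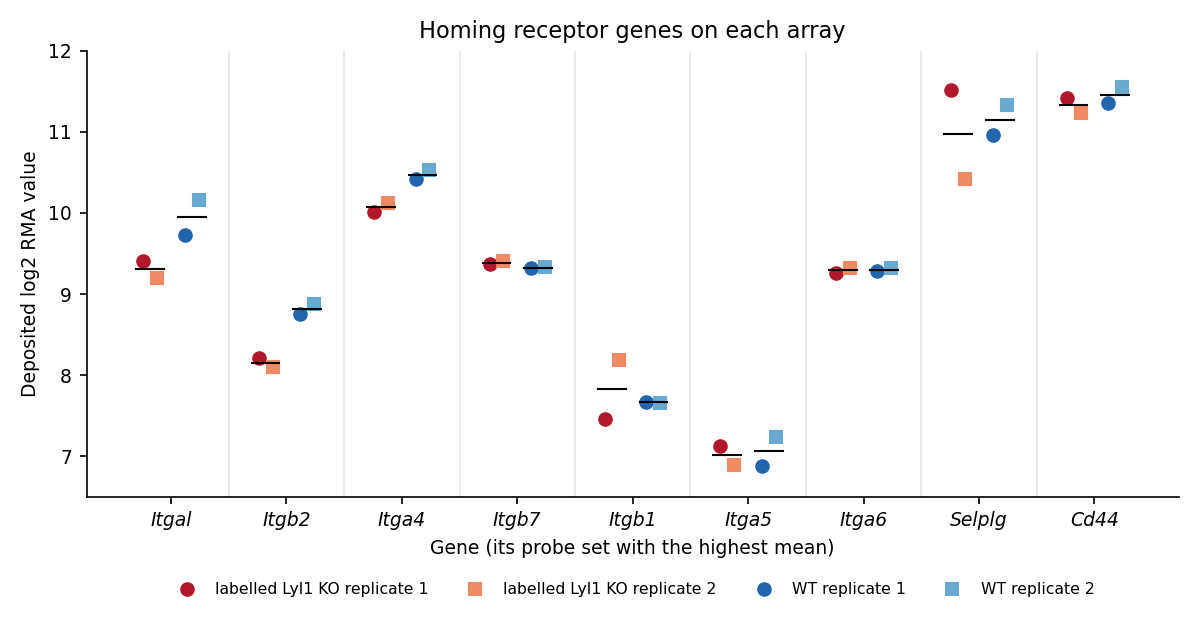
Deposited log2 RMA values (vertical axis) of the 9 genes, each from its probe set with the highest mean, on each of the 4 arrays; lines mark the mean of each group of 2. Both arrays labelled Lyl1 KO lie below both WT arrays for Itgal, Itgb2 and Itga4, while Selplg and Itgb1 have 1 such array on each side of WT. Heights of different genes come from different probes and cannot be compared.

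Itgb2 encodes the beta-2 chain, found only on leukocytes, whose loss causes leukocyte adhesion deficiency. Its 1 probe set read 8.21 and 8.09 in the libraries labelled Lyl1 KO replicate 1 and replicate 2, against 8.75 and 8.88 in the WT libraries. Both libraries labelled Lyl1 KO lay below both WT libraries, and each pair was tight. The difference was −0.66 (SE 0.17, 95% interval −1.08 to −0.25, n = 2 per group), 1.58-fold lower, with an adjusted p of 0.611 in limma.

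Itgal encodes the alpha-L chain, the partner that gives LFA-1 its grip on Icam1. Its brighter probe set read 9.41 and 9.20 in the libraries labelled Lyl1 KO, against 9.73 and 10.16 in WT. Here too the groups did not overlap, but the WT libraries were less alike than for Itgb2. The difference was −0.64 (SE 0.21, 95% interval −1.18 to −0.11, n = 2 per group), 1.56-fold lower, with an adjusted p of 0.611 in limma. The second Itgal probe set ran the other way at a low level, with 5.80 and 6.06 in the libraries labelled Lyl1 KO and 5.46 and 5.34 in WT. Its mean over the 4 arrays, 5.67, fell just short of the filter, so it was not tested. With the probe sets of a gene averaged, Itgal read −0.057.

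Itga4 encodes the alpha-4 chain, which holds progenitors to Vcam1 in marrow and steers lymphocytes to the gut. It had 5 probe sets, 3 of them tested. The brightest read 10.01 and 10.13 in the libraries labelled Lyl1 KO, against 10.41 and 10.53 in WT. The groups did not overlap, and the difference was −0.40 (SE 0.17, 95% interval −0.82 to 0.01, adjusted p = 0.611 in limma). The dimmest of those tested read 5.63 and 4.92 in the libraries labelled Lyl1 KO and 6.25 and 6.38 in WT, a difference of −1.04. Both libraries labelled Lyl1 KO were below 5.69, so a higher WT level was needed for it to pass the filter, and the difference is given with no test. The other tested one, second in brightness, split the libraries labelled Lyl1 KO, at 6.76 and 7.31, against 7.25 and 7.17 in WT. The remaining 2 Itga4 probe sets read 3.0 to 4.23 on all arrays, near the bottom of the scale, with higher values in both libraries labelled Lyl1 KO.

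The promoter of Itga4 is shown because it was the 1 gene among the 3 with the lowest differences that has an entry in the promoter table used here. The sequence is the RefSeq start-site window on GRCm38.p6, 250 bases before to 50 after the start, chr2:79255176-79255475, plus strand, with capitals at its match to the E-box CANNTG, the core bound by basic helix-loop-helix proteins such as Lyl1.
Itga4: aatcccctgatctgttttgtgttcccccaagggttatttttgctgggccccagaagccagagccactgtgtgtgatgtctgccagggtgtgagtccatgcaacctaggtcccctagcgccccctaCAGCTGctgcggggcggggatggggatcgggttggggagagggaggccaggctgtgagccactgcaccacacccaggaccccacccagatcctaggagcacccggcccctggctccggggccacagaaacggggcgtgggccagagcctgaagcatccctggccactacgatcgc
The window held 1 match to CANNTG, of the form CAGCTG, and none to CAGATG or to the GATA motif AGATAA, all searched on both strands. Among 32851 promoter windows of this length, 72.3% held CANNTG, 16.3% CAGCTG, 17.2% CAGATG and 11.2% AGATAA. The ETS core GGAA matched once here and is in 96% of windows. Of the 9 genes, 5 had an entry, and CANNTG matched 0 times in Cd44 and Itgb1, 1 time in Itga4 and 2 times in Itga5 and in Itgb7. A match is a string of letters and no evidence of binding.

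Itgb7, the beta chain that turns alpha-4 into the gut homing receptor, was the steadiest member beside Itga6. Its probe set read 9.37 and 9.40 in the libraries labelled Lyl1 KO, against 9.32 and 9.33 in WT. The groups did not overlap, yet the difference was 0.061 (SE 0.16, 95% interval −0.34 to 0.46, adjusted p = 0.888 in limma). With each array centred on its median it read −0.014, so it has no settled direction.

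Itgb1 encodes the beta-1 chain shared by the alpha-4, alpha-5 and alpha-6 receptors, and its 6 probe sets did not give a single picture. The brightest, of a kind that reads several transcripts of a gene, read 7.46 and 8.18 in the libraries labelled Lyl1 KO replicate 1 and replicate 2, against 7.68 and 7.66 in WT. The WT libraries lay between them, and the difference was 0.16 (SE 0.27, 95% interval −0.51 to 0.83, adjusted p = 0.823 in limma). The other tested probe set read 7.53 and 7.44 in the libraries labelled Lyl1 KO and 7.66 and 7.58 in WT, a difference of −0.14 (SE 0.16, adjusted p = 0.751 in limma). After quantile normalization that value was 0.0083. The other 4 Itgb1 probe sets were below the filter, between 2.82 and 4.93 on all arrays. Those marked as open to cross-hybridisation (suffix x) read 0.49 above WT in the library labelled replicate 2, and 0.06 and −0.08 relative to WT in the one labelled replicate 1.

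Itga6, the laminin receptor chain also used to mark stem and progenitor cells, was level in its brighter probe set. It read 9.26 and 9.32 in the libraries labelled Lyl1 KO and 9.28 and 9.32 in WT, a difference of −0.0077 (SE 0.16, 95% interval −0.41 to 0.39, adjusted p = 0.990 in limma), and 0.11 after quantile normalization. The dimmer one read 6.42 and 6.60 in the libraries labelled Lyl1 KO, against 6.67 and 6.93 in WT, with no overlap and a difference of −0.29 (SE 0.19, adjusted p = 0.618 in limma). The brighter one has no settled sign.

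Itga5, the chain of the classical fibronectin receptor, had 4 probe sets, 2 of them tested. The brightest read 7.13 and 6.89 in the libraries labelled Lyl1 KO and 6.89 and 7.24 in WT, and the next 6.60 and 6.11 in the libraries labelled Lyl1 KO and 6.42 and 6.33 in WT. Both overlapped between the groups, with differences of −0.055 (SE 0.21, adjusted p = 0.926 in limma) and −0.026 (SE 0.22, adjusted p = 0.970 in limma). The first of these turned to 0.053 after quantile normalization. The other 2 stayed between 3.75 and 4.86 on all arrays.

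Selplg encodes PSGL-1, the mucin that tethers leukocytes to P-selectin and is needed for progenitors to enter the thymus. Its probe set read 11.52 and 10.42 in the libraries labelled Lyl1 KO replicate 1 and replicate 2, against 10.96 and 11.33 in WT. The first was above both WT libraries and the second below both, so the difference of −0.18 (SE 0.38, 95% interval −1.14 to 0.78, adjusted p = 0.864 in limma) averages 2 opposite values, 0.37 and −0.73. No other tested member had its libraries labelled Lyl1 KO so far apart.

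Cd44 encodes the hyaluronan receptor, which also carries selectin-binding sugars, and had 4 probe sets. The brightest read 11.42 and 11.23 in the libraries labelled Lyl1 KO and 11.35 and 11.55 in WT, which overlap (difference −0.12, SE 0.18, adjusted p = 0.793 in limma). The second read 10.13 and 9.49 in the libraries labelled Lyl1 KO, against 10.28 and 10.31 in WT, a difference of −0.48 (SE 0.25, adjusted p = 0.611 in limma) that comes mostly from the library labelled replicate 2. The one after it, which reads several transcripts, was at 7.11 and 7.12 in the libraries labelled Lyl1 KO and at 7.08 and 6.86 in WT. The fourth, at 3.07 to 3.34, was below the filter. The tested Cd44 probe sets differ in sign, so they do not share a direction.

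**Figure D2:**
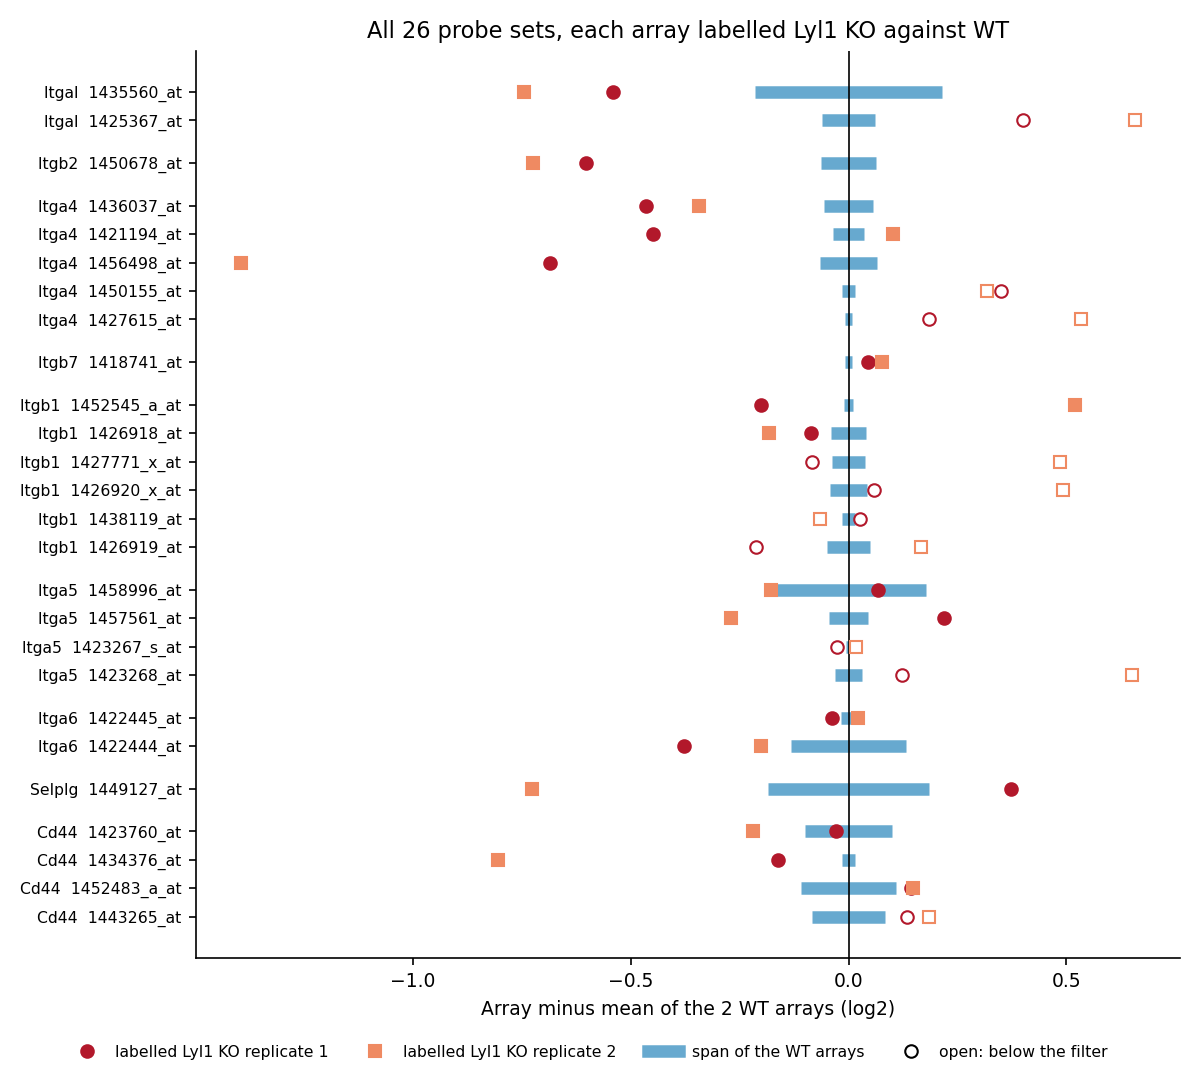
Each row is 1 of the 26 probe sets, ordered by gene and, within a gene, from the highest to the lowest mean; the horizontal axis is the array labelled Lyl1 KO minus the mean of the WT arrays (log2), circles and squares are the arrays labelled replicate 1 and replicate 2, bars are the span of the WT arrays and open symbols are probe sets below the filter. The lowest values are those of the third Itga4 probe set by mean, at −0.69 and −1.40, and most open symbols lie right of 0.

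Without the library labelled Lyl1 KO replicate 2, 0 of the 16 tested probe sets passed in limma, where 0.0488% of all probe sets did. At an unadjusted p below 0.05, which 6.69% of all probe sets reached in that fit, it had Itgb2 (−0.60, SE 0.17) and the 2 brighter Itga4 probe sets (−0.46 and −0.45), besides the dim one that passed the filter through WT (−0.69). Without the library labelled Lyl1 KO replicate 1, 2 of the 16 passed, where 10.1% of all probe sets did and 8.33% with lower values. One was the second probe set of Cd44 (−0.80, SE 0.16, adjusted p = 0.0436 in limma). The other was the dim Itga4 probe set (−1.40), which supports nothing here because the filter favoured its direction. Itgb2 had −0.72 (SE 0.17, adjusted p = 0.0550 in limma) in that fit. These comparisons share their WT libraries, and each takes the spread from WT alone.

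Values in the library labelled Lyl1 KO replicate 2 depended on how bright a probe set was, over the whole array. Among probe sets with a WT mean of 8 to 10 its median difference from WT was −0.22, against 0.23 among those at 4 to 6. In the library labelled replicate 1 these medians were −0.06 and 0.07. At the level of Itgb2, whose WT mean was 8.82, differences had a 10th percentile of −0.37 for the library labelled replicate 1, and of −0.87 for replicate 2. Itgb2, at −0.60 and −0.72, was thus below that percentile in the first and above it in the second. Itgal at a WT mean of 9.95 stood the same way, with −0.54 and −0.75. The part of this level dependence in the members' values was not tested beyond quantile normalization, after which Itgb2 read −0.52, Itgal −0.53 and the brightest Itga4 probe set −0.33.

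**Figure D3:**
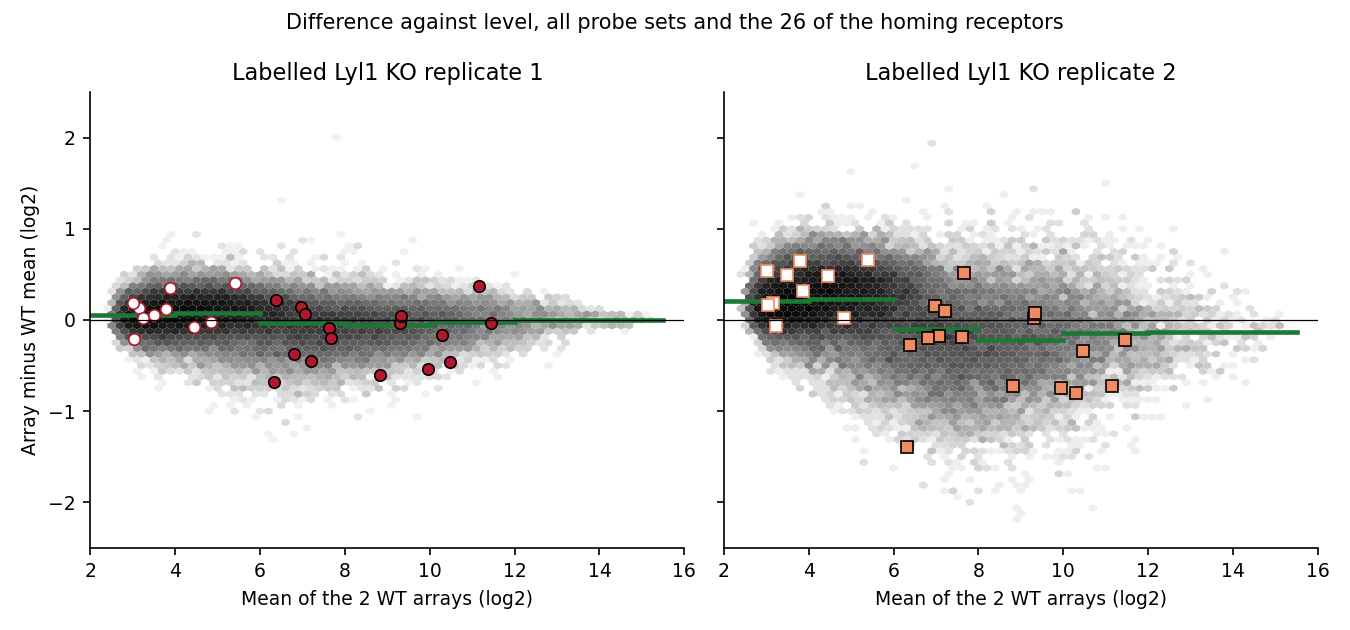
Difference of an array labelled Lyl1 KO from the WT mean (log2, vertical, cut at the ends, so a few probe sets lie outside) against the WT mean (log2, horizontal) for all probe sets (grey, darker where denser) and the 26 of the homing receptors (filled where tested, open below the filter). Green lines are medians within bands of WT level; in the array labelled replicate 2 (right) they run from 0.23 in the band from 4 to 6 to −0.22 in the band from 8 to 10.

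The dim probe sets follow the same course. Of the 10 members below the filter, 7 had a positive difference, and their median was 0.24. Of all 22518 probe sets below the filter, 75.5% had a positive difference, and their median was 0.14. In 6 of the 10, both libraries labelled Lyl1 KO lay above both WT libraries, which 37.2% of all dim probe sets did. Among the 15 tested with both group means above the filter, 6 had both libraries labelled Lyl1 KO below WT, where 26.4% of all tested probe sets did, and 2 had both above, where 17.4% did. The shares over all tested probe sets keep those that passed the filter through a single group.

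The rest of the adhesion machinery was read from 7 lists with 113 genes, each gene from its probe set with the highest mean. Of these, 78 genes passed the filter, 29 of them above and 49 below 0 in their difference. Their median was −0.13 and 0 passed in limma, with 7 at an unadjusted p below 0.05. The share of negative differences and the share at that level are both near those of all probe sets, 59.3% and 7.39%. Among the other integrin subunits 6 of 8 tested genes were positive, with a median of 0.14. Of the positive ones, Itgb4 passed the filter only through the libraries labelled Lyl1 KO, with a WT mean of 5.68. Itgax, the alpha-X chain that also pairs with Itgb2, read 7.17 and 7.09 in the libraries labelled Lyl1 KO, against 6.57 and 6.56 in WT (0.57, adjusted p = 0.611 in limma). The platelet chain Itga2b had a difference of 0.38. Itgb3 had 0.99, the highest of the 78 genes, with 0.35 in the library labelled Lyl1 KO replicate 1 and 1.63 in replicate 2. Itgb5, a partner of the alpha-V chain, was negative in all 4 of its tested probe sets, from −1.16 to −0.23, with both libraries labelled Lyl1 KO below WT in each. Itgam, a further partner of Itgb2 and a marker of mature myeloid cells, was at 3.44 to 3.98 on all arrays.

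Genes that switch integrins on or link them to the cytoskeleton had 17 of 23 tested genes negative and 6 positive, with a median of −0.20. Cyth1, which binds the tail of the beta-2 chain, read 9.90 and 9.52 in the libraries labelled Lyl1 KO and 10.19 and 10.22 in WT (−0.50, adjusted p = 0.611 in limma). The adaptor Fyb had −0.38, with −0.06 in a second probe set. Talin-1 (Tln1) and kindlin-3 (Fermt3), which bind beta tails directly, had −0.19 and −0.39, with overlapping groups. Tln1 was 0.21 above WT in the library labelled replicate 1 and read −0.59 in replicate 2, and Fermt3 read −0.03 and −0.75. A second Fermt3 probe set read 9.40 and 8.32 in the libraries labelled Lyl1 KO, against 9.41 and 9.83 in WT (−0.76), so it too differed mainly in replicate 2.

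Selectins and the enzymes that build their ligands had 3 of 10 tested genes positive and 7 negative (median −0.17). Selp, encoding P-selectin itself, read 6.48 and 6.56 in the libraries labelled Lyl1 KO and 5.95 and 5.98 in WT (0.55, adjusted p = 0.611 in limma), and its other tested probe sets had 1.05 and 0.57. Selp and Itga2b are also platelet genes. The summed level of the megakaryocyte and platelet list, which itself holds Itga2b and Itgb3, was 10.37 and 10.71 in the libraries labelled Lyl1 KO. In WT it was 10.43 and 10.21. Of its 5 tested genes, 3 were positive and 2 negative. The negative ones, Pf4 (−0.99) and Gp9 (−0.27), had both libraries labelled Lyl1 KO below WT. The part of platelet genes in the values of Selp and Itga2b was not tested. The sialyltransferase St3gal3 had 0.52. Among counter-receptors and junction molecules, 3 of 10 were positive, with the progenitor mucin Cd34 at −0.56 and Vcam1 at 0.46. Among sialomucins, hyaluronan binding proteins and the linkers to the cell cortex, 5 of 11 were positive. The linker Ezr had 0.43 in one probe set and −0.00312 in another, and its relative Msn had −0.55.

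Tetraspanins, membrane organisers that sit beside integrins, had 8 of 10 tested genes negative and a median of −0.37. Cd53 read 10.44 and 10.50 in the libraries labelled Lyl1 KO and 10.83 and 10.90 in WT (−0.40). Cd82 had −1.26, mostly from the library labelled replicate 2 (9.74 and 8.01 in the libraries labelled Lyl1 KO, 10.30 and 9.98 in WT), and 0.41 in a second probe set. Of the chemokine and lipid receptors, 4 of 6 were positive. Their exception in size was Cxcr4, the receptor that holds progenitors in marrow, at 8.80 and 9.11 in the libraries labelled Lyl1 KO, against 11.64 and 11.67 in WT (−2.70, SE 0.18, adjusted p = 0.0661 in limma). S1pr2 had 0.64, which is 0.046 in the library labelled Lyl1 KO replicate 1 and 1.23 in replicate 2, and 0.29 in a second probe set.

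**Figure D4:**
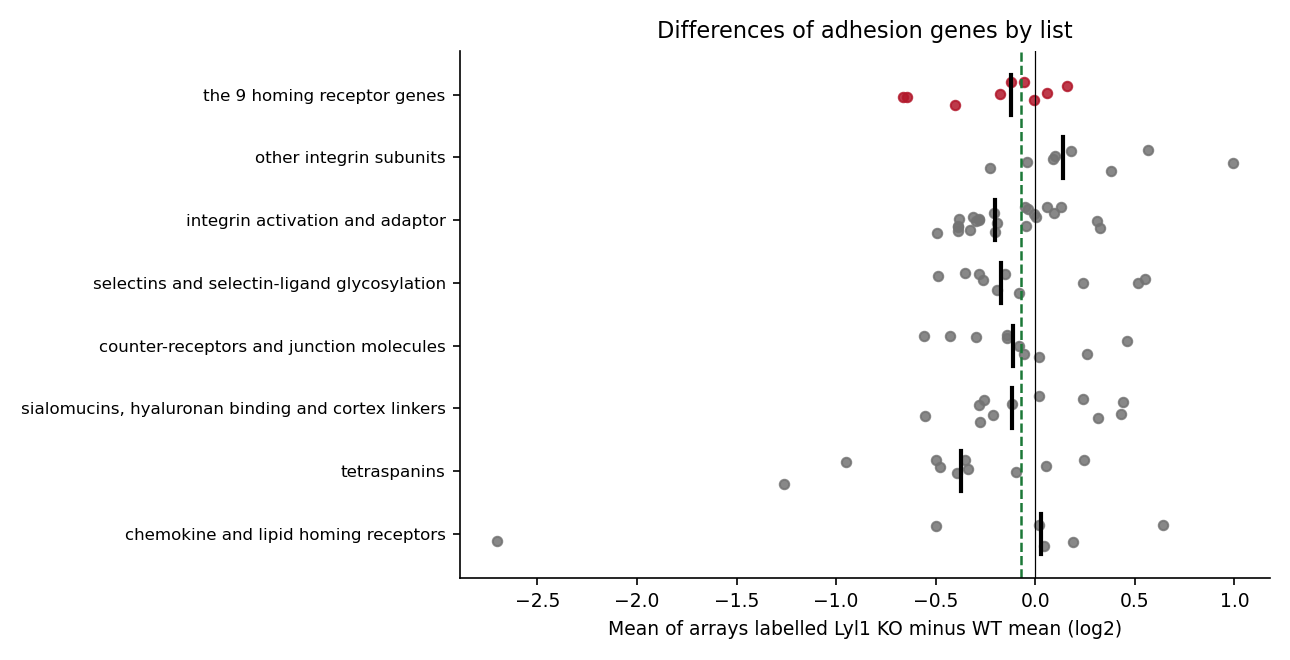
Difference between the mean of the arrays labelled Lyl1 KO and the WT mean (log2, horizontal) for each tested gene, 1 point per gene from its probe set with the highest mean, by list; black bars are list medians and the dashed green line is the median of all tested probe sets, −0.07. Tetraspanins have the lowest list median, −0.37, and the point at −2.70 is Cxcr4.

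Tested genes of the 7 lists were ranked by how close their 4 values, each taken relative to the WT mean, ran to those of Itgb2. The members are not on these lists, so its partner Itgal was not ranked. Closest among the list genes was Tpst1, which adds sulfate to tyrosines of PSGL-1 and other receptors (distance 0.29 over the 4 arrays). Cyth1 (0.31) and the leukocyte tetraspanin Cd37 (0.37) came next.

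Other cell types were read beside the LFA-1 chains, since neutrophils, monocytes and lymphocytes also carry them. In a sorted population, fewer cells of a type and less RNA per cell cannot be told apart. Of 9 neutrophil granule genes, 8 were on the array and 4 passed the filter, all with higher values in the libraries labelled Lyl1 KO. Lcn2, S100a9, Mmp8 and Mmp9 were below it. Ngp, for example, read 8.87 and 8.73 in the libraries labelled Lyl1 KO and 7.05 and 6.55 in WT. Ltf passed the filter only through the libraries labelled Lyl1 KO, at 6.77 and 6.19, against 4.93 and 5.10 in WT. The filter thus favoured its direction. The summed level of the list on the log2 scale was 10.90 and 10.63 in the libraries labelled Lyl1 KO, against 9.35 and 8.88 in WT, opposite in direction to Itgb2 and Itgal. Of 8 measured mature T and NK genes, 4 passed and 3 were positive, with summed levels of 11.89 and 11.75 in the libraries labelled Lyl1 KO and 11.56 and 11.51 in WT. Their exception was the NK receptor Klrd1, with 6.17 and 6.26 in the libraries labelled Lyl1 KO against 6.98 and 6.96 in WT. Macrophage and monocyte genes had summed levels of 10.73 and 10.87 in the libraries labelled Lyl1 KO and 10.95 and 11.04 in WT, with 3 of 4 tested genes negative and the defining marker Adgre1 below the filter. Mast cell and basophil genes, 5 on the array, had all 3 tested genes negative, with summed levels of 9.94 and 10.05 in the libraries labelled Lyl1 KO and 10.79 and 10.72 in WT. Mature B and plasma genes had summed levels of 11.98 and 11.45 in the libraries labelled Lyl1 KO and 11.49 and 11.67 in WT. The highest gene was Nkg7 (11.18 to 11.66) for T and NK, and Csf1r (10.32 to 10.71) for macrophages and monocytes. It was Gata2 (9.54 to 10.48) for mast cells and basophils, and Xbp1 (10.44 to 11.23) for B and plasma cells. Such genes weigh most in these sums, which are no measure of cell numbers. Below the filter were Cd3g, Cd3d, Ncr1 and Prf1, Ms4a2 and Fcer1a, and Ms4a1, Cr2 and Jchain. Markers of the sorted cells themselves also had lower values beside Itgb2, Itgal and Itga4. Of 9 measured LMPP and progenitor genes, 8 were negative, 6 with both libraries labelled Lyl1 KO below WT, and Il7r was positive. Over all tested probe sets, 59.3% were negative and 26.4% had both libraries labelled Lyl1 KO below WT. The level dependence described above was not taken out of these values. Kit read 9.56 and 8.97 in the libraries labelled Lyl1 KO, against 10.07 and 10.27 in WT, a difference of −0.90, and Cd48 had −1.03. The summed level of this list was 15.20 and 14.89 in the libraries labelled Lyl1 KO and 15.23 and 15.32 in WT. The part of these cell types and of these markers in the values of the members was not tested.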

How the data were processed

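Total RNA of sorted LMPPs was amplified, biotin-labelled and hybridised to 1 array per sample, per the labels' protocols. The deposited values are on a log2 scale; the submitters' processing notes name RMA, a method that corrects background, equalises distributions between arrays and summarises the probes of a probe set. The sources used here do not give its version or whether other arrays were processed with these 4. Array medians were 5.68 and 5.76 in the libraries labelled Lyl1 KO, against 5.65 and 5.65 in WT, and no further normalization was applied.

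Symbols came from the platform annotation, which gave 34945 probe sets 1 symbol, 932 several and 9160 none. No build is named for the array, so the only coordinates printed are those of the promoter table, which is RefSeq on GRCm38.p6.

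Probe sets are named by their rank in brightness within a gene. All 22519 probe sets with a mean of at least 5.69 were fitted in limma 3.58.1 under R 4.3.3 (lmFit, eBayes, two-sided, Benjamini-Hochberg over all of them, threshold 0.05). SE and 95% intervals use the moderated variance. Each array labelled Lyl1 KO was also compared with WT alone. The members and lists were chosen with earlier results of these data known. Named besides the members were Lyl1, the 2 genes of each adhesion list with the smallest p, partners and ligand enzymes of the members, and markers of other cell types. Partners, other integrin chains and further genes of the lists were chosen after their values were seen. The fit was tested on simulated data, 20 runs with 200 changed probe sets. Alternatives were the filter, 1 value per gene, normalization, the variance prior, array weights, a replicate block, the threshold and each array left out.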

Additional observations from a re-analysis of the deposited data

How the results depend on the processing

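Over 218 values from up to 15 alternatives, the 16 tested members kept direction and side of the threshold in 202, changed sign in 14 and newly passed in 2. Many of these directions were fixed in advance. The filters, the highest-mean choice, the variance priors, array weights and the replicate blocks leave the difference of a probe set unchanged. Only the mean per gene, the other normalizations and leaving out an array could change a sign. Among these, Itgb2 stayed negative, from −0.74 to −0.52, as did Itgal, from −0.86 to −0.06, and the brightest Itga4 probe set, from −0.48 to −0.18. Quantile normalization turned the brightest probe sets of Itga5 to 0.053 and of Itga6 to 0.11 and the second of Itgb1 to 0.0083, and median centring turned Itgb7 to −0.014. Leaving out 1 array gave Selplg −0.73 to 0.37, the second Itga4 probe set −0.45 to 0.10, the second of Itga5 −0.27 to 0.22 and its brightest −0.23 to 0.12, the brightest of Itga6 −0.037 to 0.022 and of Itgb1 −0.20 to 0.52. The cause was not tested. The stricter filter gave no value for dimmer members, and the mean per gene none for Itga5 and Itgb1.

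The 2 probe sets called over the whole array became 1 with the stricter filter, with the highest-mean probe set per gene and with median centring, 0 with the mean of probe sets per gene, 10 with array weights and 8 at a threshold of 0.10. Without 1 array there were 0 to 2269, with 2269 (394 higher, 1875 lower) without the library labelled Lyl1 KO replicate 1, 11 without the one labelled replicate 2 and 0 without either WT array. Members called were 0 in every alternative except 2 without the library labelled Lyl1 KO replicate 1, 1 of which passed the filter only through WT. Of 144 probe sets of the adhesion lists, 0 were called, 1 with array weights and at a threshold of 0.10, and 0 to 20 without 1 array. The replicate block gave 3 probe sets, with 0 members. Same-numbered arrays deviated in opposite directions (r = −0.38 across 22519 probe sets, which are not independent), so a crossed pairing was added after seeing the data, with 2 calls and 0 members. The small number of arrays limits precision, and 10 of 26 probe sets were too dim to test.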
